A study of Mus musculus with 12 samples.

Results

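CC chemokines are small secreted proteins that carry a pair of adjacent cysteines and guide leukocytes to sites of infection and injury. The 10 members described here, Ccl2, Ccl3, Ccl4, Ccl5, Ccl6, Ccl7, Ccl9, Ccl12, Ccl22 and Ccl24, were taken by gene symbol from the 55335 genes measured in bone marrow-derived macrophages (BMDMs). CC chemokines act through G protein-coupled receptors of the Ccr family, and many ligands share a receptor. In macrophages, lipopolysaccharide (LPS) acting on Toll-like receptors raises transcription of many of these genes. Extracellular ATP given after LPS opens the P2X7 channel and triggers the Nlrp3 inflammasome, the protein complex that matures interleukin-1 family cytokines.

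RNA of wild-type and Nlrp3-/- BMDMs was sequenced in 12 libraries, 3 in each of 4 groups, made up of control BMDMs and BMDMs given LPS+ATP of either genotype. The comparisons ask how LPS and ATP costimulation changed each gene in either genotype, how the genotypes differed in either state, and whether the response to costimulation differed between genotypes. Wild-type C57BL/6 mice and mice with a global knockout of Nlrp3 came from different suppliers, the knockout from Cyagen, and BMDMs were grown from marrow of animals aged 8 weeks for 7 days in macrophage colony-stimulating factor at 40 ng/ml. Control BMDMs of either genotype received neither LPS nor ATP. By the sample labels, LPS lasted 4 hours and the ATP that followed 30 minutes, whereas the methods describe LPS at 200 ng/ml for 12 hours and ATP at 3 mM for 2 hours, so the time of stimulation in these libraries is uncertain. Values are FPKM, the fragments per kilobase of transcript scaled to the mapped fragments, which allows levels of different genes to be set side by side. The methods describe sample sizes in general as counts of independent replicates, and whether the 3 libraries of a group came from separate animals or separate cultures is not given in the sources used here, so p-values measure only the spread between these samples. These are bulk samples, in which fewer cells of a type and less RNA per cell cannot be told apart.

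Nlrp3 checked the labels. Its FPKM was 9.24, 9.71 and 10.1 in wild-type control, 32.1, 33.0 and 33.6 in wild-type LPS+ATP, and 0 in each of the 6 Nlrp3-/- libraries. The genotypes were therefore labelled as the targeted gene shows. Macrophage markers were abundant in all 12 libraries, with Cd68 between 608 and 1478 FPKM, Adgre1 between 182 and 468, and Csf1r between 161 and 258. Donor sex changed with genotype. Xist, the RNA that coats the silenced X, ranged from 32.8 to 56.3 FPKM in Nlrp3-/- libraries and reached no more than 0.0416 in wild-type libraries. Ddx3y, Eif2s3y, Kdm5d and Uty on the Y chromosome were at 0 in each Nlrp3-/- library and at no less than 0.903 in the 6 wild-type libraries. Nnt, which differs between C57BL/6 substrains and was looked at with its values already known, ranged from 4.09 to 10.3 FPKM in wild-type and from 0.670 to 1.47 in Nlrp3-/- libraries. In every comparison of genotypes, genotype, donor sex and origin of the mice cannot be told apart.

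The members lie at 4 places in the genome (GENCODE M21 positions, GRCm38). Ccl2, Ccl7 and Ccl12 occupy 67.8 kb at chr11:82035571-82103400, and Ccl5, Ccl9, Ccl6, Ccl3 and Ccl4 occupy 139 kb at chr11:83525778-83664683. Ccl22 lies alone at chr8:94745590-94751699 and Ccl24 at chr5:135569937-135573049. An annotated gene on the opposite strand overlaps Ccl2 (Gm17268, at 0 FPKM in every library) and Ccl6 (E230016K23Rik, at most 0.340 FPKM), and whether strand was used in counting is not given in the sources used here. No member had a near copy, defined as another gene with at least 95% identity over at least 20% of the member's longest transcript.

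The summed FPKM of the 10 members was 466 in wild-type control and 398 in Nlrp3-/- control (means of 3 libraries). With LPS+ATP it was 4155 in wild-type and 3721 in Nlrp3-/- BMDMs. The members together made up 0.157% of all FPKM in wild-type control and 1.44% with LPS+ATP, and 0.134% and 1.31% in Nlrp3-/- BMDMs. The levels of single members follow by receptor, starting with the ligands of Ccr2, the receptor by which monocytes leave the marrow and enter inflamed tissue.

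Ccl2 (ENSMUSG00000035385), the main monocyte attractant of the family, was at 34.8, 34.7 and 34.0 FPKM in wild-type control, 589, 591 and 618 in wild-type LPS+ATP, 44.9, 46.4 and 44.0 in Nlrp3-/- control, and 548, 534 and 493 in Nlrp3-/- LPS+ATP. All 4 groups were apart, with Nlrp3-/- libraries above wild-type in control and below them with LPS+ATP. Ccl7 (ENSMUSG00000035373), a second Ccr2 ligand, was at 25.7, 28.0 and 24.2 FPKM in wild-type control, 275, 272 and 269 in wild-type LPS+ATP, 53.4, 54.5 and 55.9 in Nlrp3-/- control, and 330, 325 and 294 in Nlrp3-/- LPS+ATP. Nlrp3-/- libraries were above wild-type in either state. Ccl12 (ENSMUSG00000035352), a mouse Ccr2 ligand, was at 1.66, 0.793 and 1.14 FPKM in wild-type control, 64.3, 75.5 and 67.2 in wild-type LPS+ATP, 0.365, 0.593 and 0.253 in Nlrp3-/- control, and 27.6, 24.8 and 24.9 in Nlrp3-/- LPS+ATP. For Ccl12 every Nlrp3-/- library was below every wild-type library of the same state.

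Ccl3 (ENSMUSG00000000982), a ligand of Ccr1 that draws monocytes and T cells, was at 55.0, 56.2 and 56.9 FPKM in wild-type control, 1068, 1096 and 1000 in wild-type LPS+ATP, 27.4, 28.6 and 25.6 in Nlrp3-/- control, and 910, 896 and 842 in Nlrp3-/- LPS+ATP. Nlrp3-/- libraries were below wild-type in both states without overlap. Ccl4 (ENSMUSG00000018930), a neighbour of Ccl3 in the genome, was at 38.0, 34.9 and 32.7 FPKM in wild-type control, 151, 156 and 159 in wild-type LPS+ATP, 10.9, 12.2 and 10.8 in Nlrp3-/- control, and 146, 136 and 146 in Nlrp3-/- LPS+ATP. The genotypes were far apart in control and close, though without overlap, with LPS+ATP. Ccl5 (ENSMUSG00000035042), a ligand of Ccr1 and Ccr3, was at 2.98, 2.70 and 3.53 FPKM in wild-type control, 1414, 1574 and 1652 in wild-type LPS+ATP, 2.18, 2.71 and 1.66 in Nlrp3-/- control, and 1537, 1520 and 1551 in Nlrp3-/- LPS+ATP. Its genotypes overlapped in both states, and no library was intermediate between control and LPS+ATP.

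Ccl6 (ENSMUSG00000018927), a Ccr1 ligand expressed by myeloid cells, was at 224, 203 and 199 FPKM in wild-type control, 173, 170 and 178 in wild-type LPS+ATP, 179, 180 and 178 in Nlrp3-/- control, and 113, 111 and 109 in Nlrp3-/- LPS+ATP. In deposited FPKM it was lower with LPS+ATP in both genotypes, in wild-type BMDMs not with median-ratio scaling of the libraries. It was also lower in Nlrp3-/- than in wild-type BMDMs in both states. Ccl9 (ENSMUSG00000019122), another Ccr1 ligand and the neighbour of Ccl6, was at 107, 93.8 and 101 FPKM in wild-type control, 269, 288 and 282 in wild-type LPS+ATP, 76.6, 78.2 and 73.4 in Nlrp3-/- control, and 179, 166 and 169 in Nlrp3-/- LPS+ATP. It was higher with LPS+ATP, and every Nlrp3-/- library was below every wild-type library of its state.

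Ccl22 (ENSMUSG00000031779), a Ccr4 ligand that draws regulatory and helper T cells, was at 0.704, 0.476 and 0.684 FPKM in wild-type control, 3.07, 3.75 and 4.07 in wild-type LPS+ATP, 2.54, 2.77 and 2.38 in Nlrp3-/- control, and 9.81, 9.0 and 10.6 in Nlrp3-/- LPS+ATP. Nlrp3-/- libraries were above wild-type in both states. Ccl24 (ENSMUSG00000004814), a Ccr3 ligand that draws eosinophils, was at 0.134, 0.590 and 0.494 FPKM in wild-type control, 0.215, 0.756 and 0.530 in wild-type LPS+ATP, and 0.436, 0.227 and 0.180 in Nlrp3-/- control, and was listed at 0 in all 3 Nlrp3-/- LPS+ATP libraries. It stayed under 1 FPKM throughout and overlapped between the other groups.

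**Figure D1:**
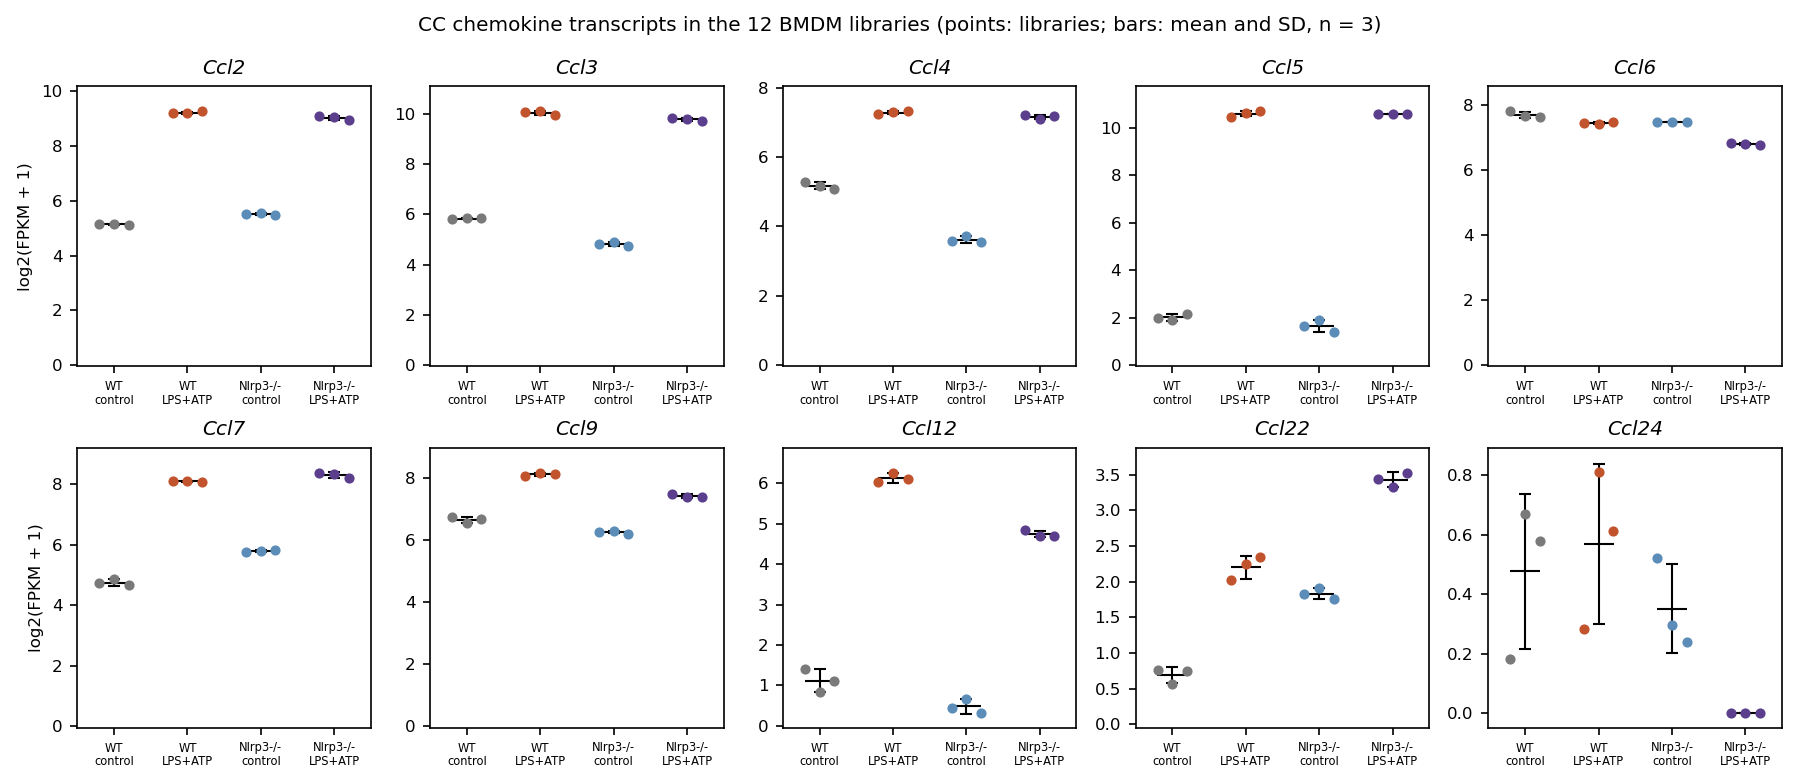
FPKM of the 10 CC chemokines on a log2(FPKM + 1) axis, with 1 point per library, 3 libraries per group and a bar at the group mean. Ccl5 sits between 1.66 and 3.53 FPKM in control and between 1414 and 1652 with LPS+ATP. Ccl6 is lower with LPS+ATP in both genotypes, in wild-type BMDMs not with median-ratio scaling.

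In wild-type control the order of mean FPKM was Ccl6 (209 ± 13.8, SD, n = 3), Ccl9 (101 ± 6.70), Ccl3 (56.0 ± 0.952), Ccl4 (35.2 ± 2.65), Ccl2 (34.5 ± 0.414), Ccl7 (25.9 ± 1.94), Ccl5 (3.07 ± 0.422), Ccl12 (1.20 ± 0.439), Ccl22 (0.621 ± 0.126) and Ccl24 (0.406 ± 0.241). The libraries of Ccl4 and Ccl2 overlapped, as did those of Ccl22 and Ccl24. In Nlrp3-/- control Ccl6 (179 ± 1.05) and Ccl9 (76.1 ± 2.47) again led, followed by Ccl7 (54.6 ± 1.26), Ccl2 (45.1 ± 1.18), Ccl3 (27.2 ± 1.55), Ccl4 (11.3 ± 0.799), Ccl22 (2.56 ± 0.193), Ccl5 (2.18 ± 0.526), Ccl12 (0.403 ± 0.173) and Ccl24 (0.281 ± 0.136). Here Ccl22 overlapped with Ccl5, and Ccl12 with Ccl24. Ccl7 and Ccl2 thus stood above Ccl3 and Ccl4 in Nlrp3-/- control and at or below them in wild-type control.

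With LPS+ATP, Ccl5 (1547 ± 122) came before Ccl3 (1055 ± 49.4) and Ccl2 (599 ± 16.0) in wild-type BMDMs, then Ccl9 (280 ± 9.44), Ccl7 (272 ± 2.65), Ccl6 (174 ± 3.93), Ccl4 (156 ± 3.98), Ccl12 (69.0 ± 5.79), Ccl22 (3.63 ± 0.512) and Ccl24 (0.50 ± 0.272). Among these neighbours only Ccl9 and Ccl7 overlapped. In Nlrp3-/- LPS+ATP the order was Ccl5 (1536 ± 15.9), Ccl3 (882 ± 35.8), Ccl2 (525 ± 28.6), Ccl7 (316 ± 19.8), Ccl9 (172 ± 6.79), Ccl4 (142 ± 6.03), Ccl6 (111 ± 2.13), Ccl12 (25.8 ± 1.57) and Ccl22 (9.79 ± 0.773), with Ccl24 listed at 0. No neighbours overlapped in that group.

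The make-up of the summed CC chemokine FPKM turned over with costimulation. Ccl6 held 44.7% of the sum in wild-type control and 4.19% with LPS+ATP, and 44.9% and 2.98% in Nlrp3-/- BMDMs. Ccl5 held 0.659% in wild-type control and 37.2% with LPS+ATP, and 0.546% and 41.3% in Nlrp3-/- BMDMs. Ccl3 held 12.04% in wild-type control and 25.4% with LPS+ATP, and 6.83% and 23.7% in Nlrp3-/- BMDMs. The plot of shares shows that Ccl7 made up more of the sum in Nlrp3-/- control (13.7%) than in wild-type control (5.57%).

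**Figure D2:**
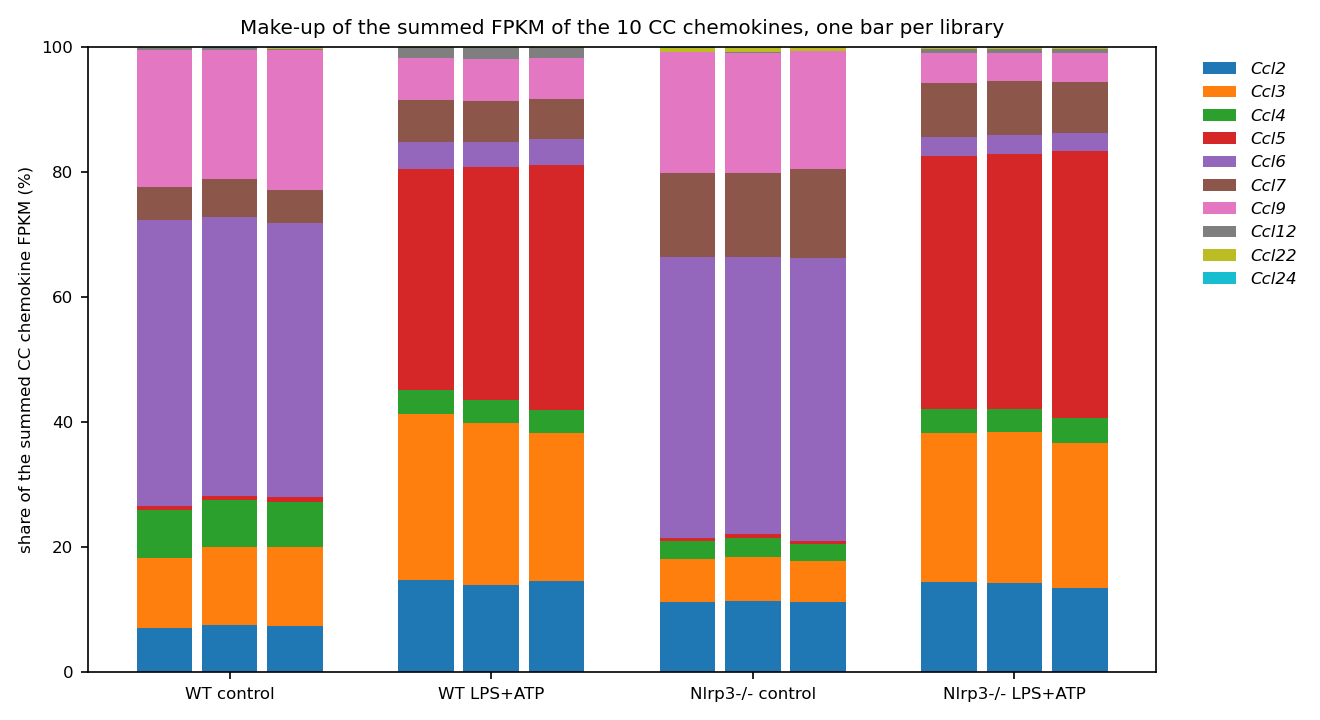
Share of each CC chemokine in the summed FPKM of the 10 members (%), with 1 stacked bar per library and 3 libraries per group. Ccl6 and Ccl9 fill most of each control bar (mean Ccl6 share 44.7% in wild-type and 44.9% in Nlrp3-/-), and Ccl5, Ccl3 and Ccl2 most of each LPS+ATP bar (mean Ccl5 share 37.2% and 41.3%).

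Promoters from RefSeq (GRCm38.p6, 250 bases before to 50 after the start of the gene) were found for 5 of the 10 members, Ccl3, Ccl6, Ccl9, Ccl12 and Ccl22. The members without an entry are Ccl2, Ccl4, Ccl5, Ccl7 and Ccl24. Each promoter was searched on both strands for the kappa B word GGGNNNNNCC, the interferon response word GAAANNGAAA, the AP-1 word TGANTCA, the STAT word TTCNNNNGAA and the TATA word TATAAA, which occur in 50.8%, 3.44%, 7.81%, 6.95% and 13.6% of the 32851 promoters. Of the 5 members, 2 held the kappa B word, 1 the AP-1 word, 2 the TATA word, and 0 the interferon response or STAT word. Below are the promoters of Ccl9 (chr11:83578587-83578886, minus strand) and Ccl6 (chr11:83593038-83593337, minus strand), shown because these neighbours moved in opposite directions with costimulation in Nlrp3-/- BMDMs, with matches in capitals.
Ccl9: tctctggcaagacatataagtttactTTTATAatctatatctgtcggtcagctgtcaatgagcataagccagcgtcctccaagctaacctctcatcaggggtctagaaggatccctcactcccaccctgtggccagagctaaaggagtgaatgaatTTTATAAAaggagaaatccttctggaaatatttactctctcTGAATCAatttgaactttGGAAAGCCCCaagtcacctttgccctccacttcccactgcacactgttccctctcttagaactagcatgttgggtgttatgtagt
Ccl6: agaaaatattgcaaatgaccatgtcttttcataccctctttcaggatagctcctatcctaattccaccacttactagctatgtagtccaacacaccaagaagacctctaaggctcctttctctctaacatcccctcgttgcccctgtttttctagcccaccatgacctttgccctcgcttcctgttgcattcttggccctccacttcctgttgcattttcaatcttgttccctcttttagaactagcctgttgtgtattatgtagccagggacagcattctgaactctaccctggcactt
In Ccl9 the capitals mark, from left to right, the TATA word on the opposite strand 224 bases before the start, overlapping TATA words of the opposite and the printed strand 94 and 92 bases before, the AP-1 word 53 bases before and the kappa B word on the opposite strand (GGAAAGCCCC) 35 bases before. Neither Ccl6 nor Ccl3 (chr11:83649329-83649628, minus strand) held any of these words. A match is a description of letters and not a shown binding site.

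The promoters of Ccl12 (chr11:82101595-82101894, plus strand) and Ccl22 (chr8:94745434-94745733, plus strand) are shown because these members differed between genotypes in opposite directions.
Ccl12: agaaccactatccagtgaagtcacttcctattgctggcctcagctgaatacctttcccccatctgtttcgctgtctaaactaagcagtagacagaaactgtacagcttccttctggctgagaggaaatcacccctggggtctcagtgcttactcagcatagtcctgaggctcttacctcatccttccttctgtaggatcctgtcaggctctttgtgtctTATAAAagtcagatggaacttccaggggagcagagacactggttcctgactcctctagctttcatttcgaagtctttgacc
Ccl22: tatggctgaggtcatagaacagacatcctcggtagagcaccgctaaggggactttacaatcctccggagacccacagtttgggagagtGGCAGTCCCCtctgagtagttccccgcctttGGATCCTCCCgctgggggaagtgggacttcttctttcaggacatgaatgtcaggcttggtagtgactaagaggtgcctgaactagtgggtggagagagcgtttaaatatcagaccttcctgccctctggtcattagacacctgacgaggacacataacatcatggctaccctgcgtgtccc
In Ccl12 the capitals mark the TATA word 31 bases before the start. In Ccl22 they mark kappa B words on the opposite strand, GGCAGTCCCC 162 bases and GGATCCTCCC 131 bases before the start.

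Costimulation raised most CC chemokines in both genotypes. In wild-type BMDMs mean Ccl5 was 504 times its control level, Ccl12 57.6 times, Ccl3 18.8 times, Ccl2 17.4 times and Ccl7 10.5 times. Smaller ratios were found for Ccl22 (5.84), Ccl4 (4.42) and Ccl9 (2.78), while Ccl6 was at 0.833 of its control level. In Nlrp3-/- BMDMs mean Ccl5 was 704 times its control level, Ccl12 63.9 times, Ccl3 32.4 times, Ccl4 12.6 times and Ccl2 11.6 times. There Ccl7 was at 5.80, Ccl22 at 3.82, Ccl9 at 2.26 and Ccl6 at 0.621 times control.

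Of the 10 members, 9 passed the filter for testing (3 or more libraries at 1 FPKM or above), and Ccl24 did not. A gene that is high in a group can pass through that group alone, and its test against other groups is then not independent of the filter. Ccl12 passed only with its LPS+ATP libraries. Tests used limma on log2(FPKM + 1), a scale that shrinks the change of weakly expressed genes, with p-values adjusted over 12622 genes. A gene was called where its adjusted p was under 0.05 and its log2 fold change 1 or more, up or down, and counts at an adjusted p under 0.05 alone are given as well. In wild-type BMDMs costimulation called 8 of the 9 tested members higher and 0 lower, against 8.25% of all tested genes higher and 11.2% lower. At an adjusted p under 0.05 alone 8 were higher and 1, Ccl6, was lower, against 23.3% and 53.1% of all tested genes. In Nlrp3-/- BMDMs the counts were also 8 higher and 0 lower, against 6.64% and 8.21%, and by adjusted p alone 8 higher and 1 lower, against 20.6% and 53.8%. Libraries of control and LPS+ATP did not overlap for 9 of the 9 tested members in either genotype, against 78.1% of all tested genes in wild-type and 77.4% in Nlrp3-/- BMDMs.

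By limma the log2 fold change of Ccl5 was 8.57 in wild-type BMDMs (95% CI 8.33 to 8.82, adjusted p = 6.27e-14) and 8.93 in Nlrp3-/- BMDMs (95% CI 8.69 to 9.17, adjusted p = 5.76e-14). Ccl12 rose by 5.01 in wild-type (95% CI 4.72 to 5.30) and by 4.26 in Nlrp3-/- BMDMs (95% CI 3.97 to 4.55), with limma adjusted p of 2.43e-11 and 1.33e-10. Ccl2 rose by 4.08 and 3.51 (limma adjusted p = 7.95e-15 and 2.79e-14), and Ccl7 by 3.34 and 2.51 (4.07e-13 and 5.55e-12), in wild-type and Nlrp3-/- BMDMs. The log2 rise of Ccl2 and Ccl7 was larger in wild-type BMDMs, and so was that of Ccl12 on this scale, whereas with a pseudocount of 0.1 Ccl12 rose by 5.79 and 5.74. Ccl3 rose by 4.21 and 4.97 (limma adjusted p = 2.34e-14 and 7.79e-15), and Ccl4 by 2.11 and 3.55 (4.01e-11 and 7.21e-13). Here the larger rise was in Nlrp3-/- BMDMs. Ccl9 rose by 1.47 and 1.16 (limma adjusted p = 2.07e-10 and 2.25e-09), and Ccl22 by 1.51 and 1.60 (3.72e-08 and 3.06e-08). With a pseudocount of 0.1 the wild-type value of Ccl22 was 2.38.

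Ccl6 alone among the tested members was lower with LPS+ATP, in wild-type BMDMs not under median-ratio scaling. Its log2 fold change by limma was -0.26 in wild-type (95% CI -0.35 to -0.17, adjusted p = 0.000130) and -0.68 in Nlrp3-/- BMDMs (95% CI -0.77 to -0.59, adjusted p = 4.50e-08). The 6 libraries of either genotype did not overlap between states. The wild-type fall depended on scaling. With median-ratio scaling of the libraries it was 0.07 (limma adjusted p = 0.161) and with upper-quartile scaling -0.09 (0.0696), where adjusted p over all alternatives ran from 5.09e-05 to 0.161. In Nlrp3-/- BMDMs median-ratio scaling gave -0.39.

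**Figure D3:**
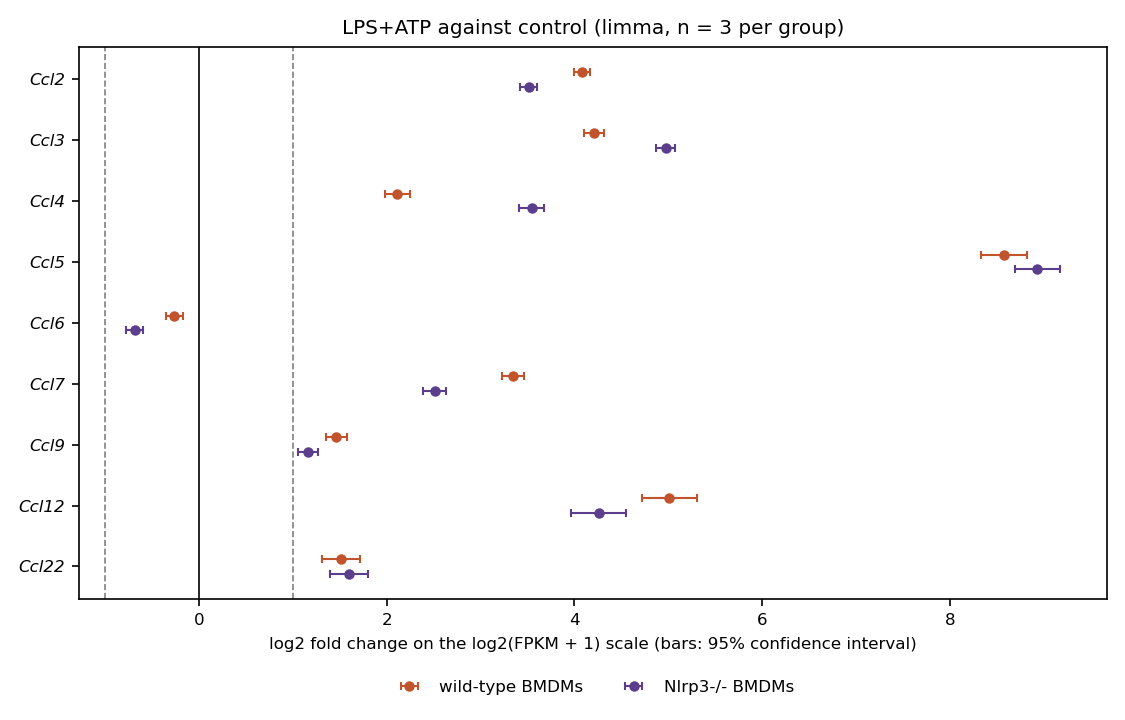
Log2 fold change of LPS+ATP against control on the log2(FPKM + 1) scale for the 9 tested CC chemokines, with 95% confidence intervals from limma (n = 3 libraries per group), in wild-type and Nlrp3-/- BMDMs. Ccl5 lies at 8.57 and 8.93 and Ccl6 at -0.26 and -0.68, the wild-type value of Ccl6 turning to 0.07 with median-ratio scaling.

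The median log2 fold change of the 9 tested members was 3.34 in wild-type and 3.51 in Nlrp3-/- BMDMs, against -0.26 and -0.24 over all 12622 genes. With median-ratio scaling the median over all genes was -0.0089 and -0.0134 in these comparisons, and -0.0313 and -0.0402 in the comparisons of genotypes in control and with LPS+ATP. Under the deposited scaling 1041 genes were called higher and 1411 lower in wild-type BMDMs (42.5% higher), under median-ratio scaling 1399 and 876 (61.5%), and under upper-quartile scaling 1220 and 1087 (52.9%). In Nlrp3-/- BMDMs the counts were 838 and 1036 (44.7%) and, with median-ratio scaling, 1093 and 604 (64.4%). The number of members called was 8 in either genotype under both of these scalings too.

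In control BMDMs the genotypes differed in both directions. Ccl22 was 4.13 times and Ccl7 2.10 times as high in Nlrp3-/- as in wild-type control, and Ccl2 1.31 times. Ccl4 was at 0.321, Ccl12 at 0.336 and Ccl3 at 0.486 of the wild-type mean, while Ccl9 was at 0.755 and Ccl6 at 0.856. Libraries did not overlap for 8 of the 9 tested members, against 56.0% of all tested genes, and those of Ccl5 (0.711) overlapped, as did those of Ccl24 (0.692), which was not tested. Of the 9 tested members 2 were called higher (Ccl7 and Ccl22) and 2 lower (Ccl3 and Ccl4), against 6.02% higher and 0.689% lower of all tested genes. By adjusted p alone 3 were higher and 6 lower, against 33.3% and 14.5%. The median over the tested members was -0.36, against 0.09 over all genes. With the fold limit 760 genes in all were called higher and 87 lower. Those counts were 596 and 129 with median-ratio scaling, and 1274 and 154 with a pseudocount of 0.1.

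In control Ccl4 had a log2 fold change of -1.56 between genotypes (95% CI -1.69 to -1.43, limma adjusted p = 2.72e-09). Its neighbour Ccl3 differed by -1.02 (95% CI -1.12 to -0.91, limma adjusted p = 1.33e-08), and by -0.97 without Nlrp3-/- control replicate 3, which ended the call. Ccl22 was higher by 1.14 (95% CI 0.93 to 1.34, limma adjusted p = 1.25e-06), and by 1.90 with a pseudocount of 0.1. Ccl7 was higher by 1.05 (95% CI 0.93 to 1.17, limma adjusted p = 3.17e-08), a call that ended with median-ratio scaling (0.89), with upper-quartile scaling (0.97) and without wild-type control replicate 3 (0.999). For these 4 members the 6 control libraries did not overlap between genotypes.

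Below a log2 fold change of 1, Ccl2 was higher by 0.38 in Nlrp3-/- control (limma adjusted p = 1.04e-05), or by 0.23 with median-ratio scaling. Ccl9 was at -0.40 (limma adjusted p = 4.76e-05) and Ccl6 at -0.22 (0.000970), the latter at -0.38 with median-ratio scaling. Ccl12 was at -0.64 (95% CI -0.93 to -0.34, limma adjusted p = 0.00214), a value that reached -1.08 on TPM and -1.37 with a pseudocount of 0.1, both past the fold limit. Ccl5 was at -0.36 (limma adjusted p = 0.0184) with overlapping libraries. Without wild-type control replicate 3 its value was -0.28 (limma adjusted p = 0.0733), without Nlrp3-/- control replicate 3 it was -0.24 (0.0646), and with the control groups fitted alone its adjusted p was 0.0724, in a range of 0.00279 to 0.0733 over all alternatives.

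With LPS+ATP the genotypes again differed in both directions. Ccl22 was 2.70 times as high in Nlrp3-/- as in wild-type LPS+ATP BMDMs, and Ccl12 was 2.68-fold lower. Ccl9 was at 0.613 and Ccl6 at 0.638 of the wild-type mean. The remaining ratios were nearer 1, at 0.837 for Ccl3, 0.876 for Ccl2, 0.916 for Ccl4, 0.993 for Ccl5 and 1.16 for Ccl7. Libraries did not overlap for 8 of the 9 tested members, all but Ccl5, against 57.9% of all tested genes. Of the 9 tested members 1 was called higher and 1 lower, against 4.48% and 0.570% of all tested genes. By adjusted p alone 2 were higher and 5 lower, against 35.9% and 12.6%, and the median over the tested members was -0.19 against 0.11 over all genes. With the fold limit 565 genes in all were called higher and 72 lower. Those counts were 451 and 117 with median-ratio scaling, and 1266 and 140 with a pseudocount of 0.1.

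The call of Ccl12 was at -1.39 (95% CI -1.68 to -1.09, limma adjusted p = 6.03e-06) and that of Ccl22 at 1.22 (95% CI 1.02 to 1.43, limma adjusted p = 8.33e-07), with no overlap among the 6 libraries. Under the fold limit, Ccl9 was at -0.70 (95% CI -0.81 to -0.59, limma adjusted p = 5.14e-07) and Ccl6 at -0.64 (95% CI -0.73 to -0.55, limma adjusted p = 2.24e-07). Ccl3 was at -0.26 (limma adjusted p = 0.000917) and Ccl2 at -0.19 (0.00187), or at -0.45 and -0.38 with median-ratio scaling. Ccl7 was at 0.22 (95% CI 0.10 to 0.33, limma adjusted p = 0.00662). With median-ratio scaling it was at 0.02 (limma adjusted p = 0.744) and with upper-quartile scaling at 0.09 (0.170), in a range of 0.00190 to 0.744 over all alternatives.

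Ccl4 and Ccl5 did not pass in this comparison. Ccl4 was at -0.13 (95% CI -0.26 to 0.01, limma adjusted p = 0.105), although it passed by adjusted p alone with median-ratio scaling (-0.32, adjusted p = 0.00109), with upper-quartile scaling (-0.25, 0.00527) and with the LPS+ATP groups fitted alone (0.0304), in a range of 0.00109 to 0.294. Ccl5 was at -0.01 (95% CI -0.25 to 0.24, limma adjusted p = 0.965). Ccl24 was not among the tested genes, and in a fit with no filter its log2 fold change was -0.57 (limma adjusted p = 0.0218), with Nlrp3-/- libraries listed at 0. In the same unfiltered fit the other comparisons of Ccl24 had adjusted p of 0.749 (costimulation in wild type), 0.10 (costimulation in Nlrp3-/-), 0.666 (genotype in control) and 0.274 (interaction).

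The response to costimulation itself differed between genotypes for 7 of the 9 tested members, as tested by the interaction of genotype and state (the log2 fold change between genotypes with LPS+ATP minus that in control). On TPM and with a pseudocount of 0.1 it did so for 6, without Ccl12. With the fold limit 1 member was called higher (Ccl4) and 0 lower, against 0.721% and 1.43% of all tested genes. By adjusted p alone 2 were higher and 5 lower, against 14.7% and 13.0%. The median was -0.30 over the tested members and 0.02 over all genes. With the fold limit 91 genes in all were called higher and 180 lower, and 272 and 362 with a pseudocount of 0.1. The comparisons of costimulation and of genotype share groups of libraries, so that their values are not independent.

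Ccl4 had an interaction of 1.43 (95% CI 1.25 to 1.62, limma adjusted p = 7.24e-07) and Ccl3 of 0.76 (95% CI 0.61 to 0.91, limma adjusted p = 1.19e-05). Both started lower in Nlrp3-/- control and came closer to wild-type with LPS+ATP. Ccl7 had an interaction of -0.83 (95% CI -1.0 to -0.66, limma adjusted p = 1.71e-05) and Ccl2 of -0.57 (95% CI -0.69 to -0.45, limma adjusted p = 2.56e-05). Both started higher in Nlrp3-/- control and rose less. Ccl6 had an interaction of -0.42 (limma adjusted p = 0.000311) and Ccl9 of -0.30 (0.00826), so that the gap between genotypes was wider with LPS+ATP.

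The interaction of Ccl12 depended on the scale. It was -0.75 (95% CI -1.16 to -0.33, limma adjusted p = 0.0125) on log2(FPKM + 1), -0.31 (0.477) on TPM and -0.05 (0.941) with a pseudocount of 0.1, in a range of adjusted p from 0.00189 to 0.941. The ratio of mean FPKM with LPS+ATP to that in control was 57.6 in wild-type BMDMs and 63.9 in Nlrp3-/- BMDMs. For Ccl5 the interaction was 0.36 (95% CI 0.01 to 0.70, limma adjusted p = 0.118), and without Nlrp3-/- control replicate 2 it was 0.47 (0.0267) and without Nlrp3-/- control replicate 3 it was 0.23 (0.222), in a range of 0.0267 to 0.243. For Ccl22 it was 0.09 (95% CI -0.20 to 0.37, limma adjusted p = 0.675), and it was -0.48 with a pseudocount of 0.1 and -0.26 on TPM, with adjusted p between 0.101 and 0.989 over all alternatives.

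**Figure D4:**
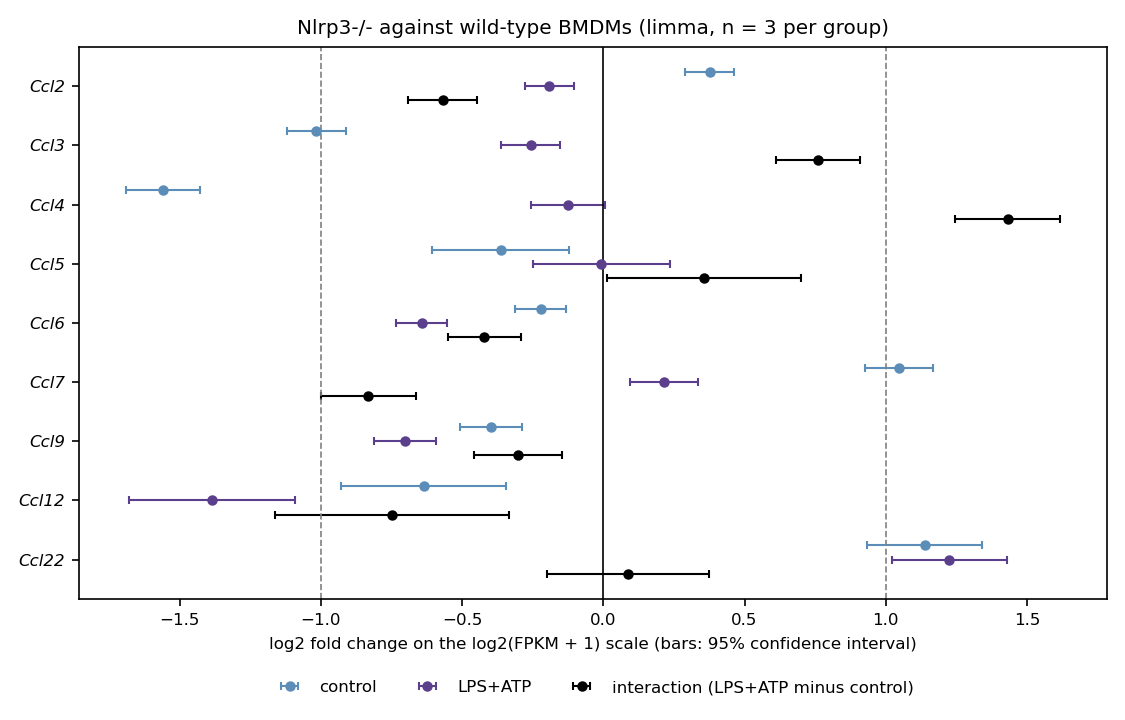
Log2 fold change of Nlrp3-/- against wild-type BMDMs on the log2(FPKM + 1) scale in control and with LPS+ATP, and their difference (interaction), for the 9 tested CC chemokines with 95% confidence intervals from limma (n = 3 libraries per group). Ccl4 moves from -1.56 in control to -0.13 with LPS+ATP, Ccl7 from 1.05 to 0.22 (0.02 with median-ratio scaling), and Ccl22 is at 1.14 and 1.22 (1.90 and 1.41 with a pseudocount of 0.1).

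For each tested member, the genes nearest in pattern were sought among tested genes outside the lists of chemokines and receptors, so that no other chemokine could be found. Distance was Euclidean over the 4 group means of log2(FPKM + 1), centred on each gene's own mean. The closest was Tmem9b to Ccl6, at a distance of 0.053 and with mean FPKM of 40.01, 31.8, 33.9 and 21.3 in wild-type BMDMs (control, then LPS+ATP) and Nlrp3-/- BMDMs (control, then LPS+ATP). Sdc1 lay at 0.088 from Ccl22, with 15.3, 48.8, 36.9 and 115.5 FPKM in the same order. Irf7 lay at 0.091 from Ccl3, with 10.3, 222, 5.08 and 181 FPKM. All 3 genes share with the member its order of the group means, which follows from their choice by distance over those means. Rasgrp1 lay at 0.098 from Ccl2, with 0.167, 19.6, 0.541 and 16.6 FPKM. Its mean was under 1 FPKM in both control groups, where this scale shrinks changes, so its small distance rests on the scale. Perm1 lay at 0.185 from Ccl9, Trex1 at 0.186 from Ccl4, Ier3 at 0.193 from Ccl7 and Trim30c at 0.330 from Ccl12. The next nearest were Dock10 for Ccl6 (0.078), Spsb1 for Ccl22 (0.109), Phf11b for Ccl3 (0.310), Sod2 for Ccl2 (0.210), Slc31a1 for Ccl9 (0.199), Fabp3 for Ccl4 (0.430), Pilra for Ccl7 (0.226) and Ifit1bl1 for Ccl12 (0.402). Ccl5 had no gene this near among those searched, with Nos2 at 1.01 and Il1a at 1.07.

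CC chemokine receptors that were tested included Ccr1, Ccr2, Ccr3 and Ccr7. Ccr1, the receptor of Ccl3, Ccl5, Ccl6 and Ccl9, was at 40.7, 39.9 and 37.2 FPKM in wild-type control, 22.6, 21.6 and 21.7 in wild-type LPS+ATP, 34.9, 34.3 and 33.1 in Nlrp3-/- control, and 9.90, 10.1 and 10.4 in Nlrp3-/- LPS+ATP. It was lower with LPS+ATP, most in Nlrp3-/- BMDMs. Ccr2, the receptor of Ccl2, Ccl7 and Ccl12, was at 2.52, 1.52 and 2.14 FPKM in wild-type control, 4.55, 3.43 and 4.79 in Nlrp3-/- control, and at most 0.137 in the 6 LPS+ATP libraries. Its genotypes were apart in control only.

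With costimulation Ccr7 was called higher (1.07) and Ccr2 lower (-1.46) in wild-type BMDMs. In Nlrp3-/- BMDMs Ccr1 (-1.66) and Ccr2 (-2.25) were called lower, and Ccr7 was at 0.94, or 1.14 with median-ratio scaling. In control Ccr2 (0.79), Ccr3 (0.87) and Ccr7 (0.88) were higher and Ccr1 (-0.20) lower in Nlrp3-/- BMDMs by limma adjusted p alone, each short of the fold limit, and Ccr7 (1.34) and Ccr3 (1.34) passed the fold limit on TPM, as did Ccr2 (1.029) with a pseudocount of 0.1. With LPS+ATP Ccr1 was called lower (-1.05, limma adjusted p = 4.19e-09), and Ccr7 was higher by limma adjusted p alone (0.75, 0.000176). The interaction of Ccr1 was -0.85 (limma adjusted p = 1.85e-06), that of Ccr2 -0.79 (0.00643) and that of Ccr3 -0.65 (0.00219), so that the fitted change with costimulation was lower in Nlrp3-/- BMDMs for each. Of these, Ccr2 passed the fold limit with a pseudocount of 0.1 (-1.05), as did Ccr3 (-1.12). Ccr4, the receptor of Ccl22, was at most 0.0318 FPKM in any library.

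**Figure D5:**
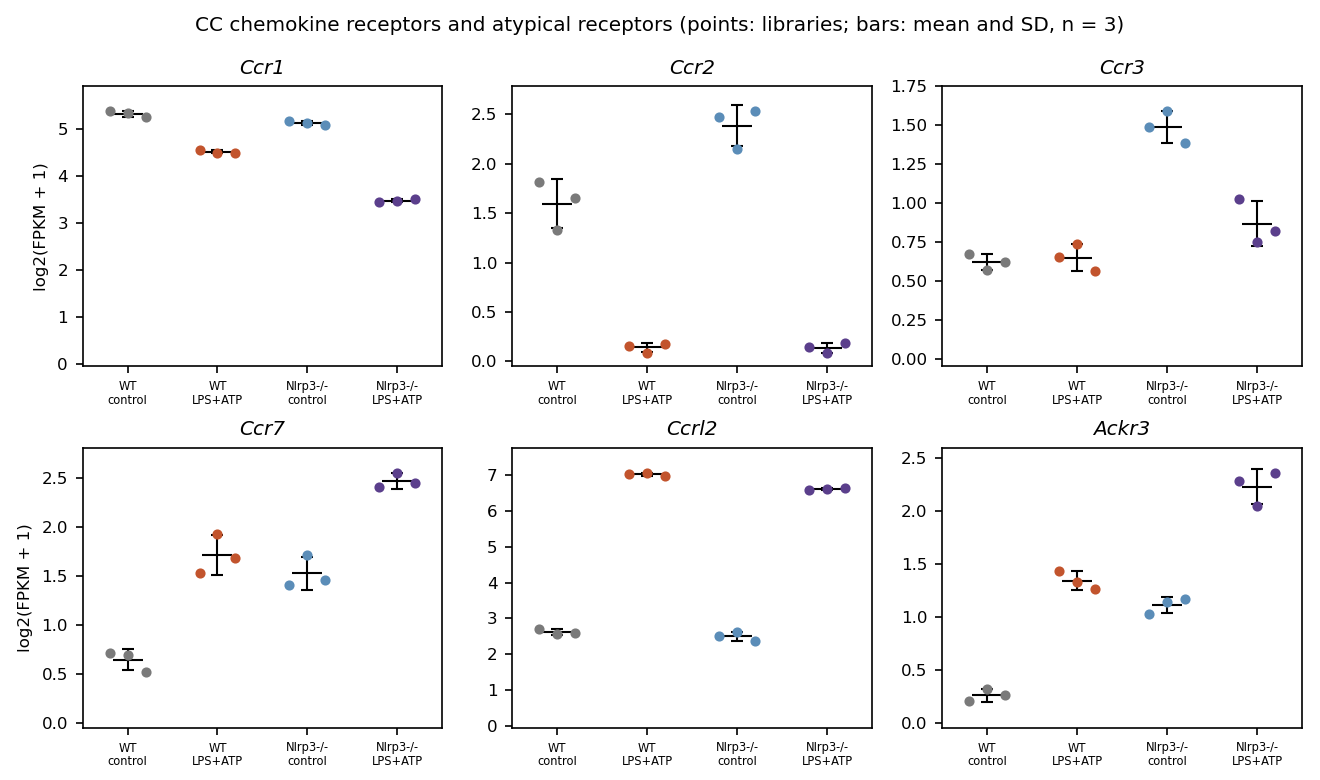
FPKM of 4 CC chemokine receptors and 2 decoy receptors on a log2(FPKM + 1) axis, with 1 point per library, 3 libraries per group and a bar at the group mean. Ccr1 lies between 37.2 and 40.7 FPKM in wild-type control and between 9.90 and 10.4 in Nlrp3-/- LPS+ATP, and Ccrl2 is at most 5.58 FPKM in control and at least 93.9 with LPS+ATP.

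Of 6 decoy and atypical receptors, 2 were tested and both were called higher with costimulation in either genotype, against 8.25% of all tested genes in wild-type and 6.64% in Nlrp3-/- BMDMs. Ccrl2, which binds chemerin and does not signal, rose by 4.39 in wild-type (limma adjusted p = 1.24e-13) and by 4.11 in Nlrp3-/- BMDMs (2.77e-13). With LPS+ATP it was lower in Nlrp3-/- BMDMs by limma (-0.41, adjusted p = 0.000194). Ackr3 rose by 1.08 and 1.12 (limma adjusted p = 4.13e-07 and 3.81e-07). It was higher in Nlrp3-/- BMDMs by 0.85 in control and 0.89 with LPS+ATP, or by 1.57 and 1.15 on TPM. The interaction of Ackr3 depended on the scale. It was 0.04 (limma adjusted p = 0.861), -0.42 on TPM (0.104) and -0.88 with a pseudocount of 0.1 (0.0128).

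Of 12 other CC chemokines, 2 were tested. Ccl8 was between 2.52 and 4.42 FPKM in wild-type control and between 11.7 and 15.8 with LPS+ATP, and between 6.47 and 7.36 and between 12.4 and 15.4 in Nlrp3-/- BMDMs. It was called higher with costimulation in wild-type BMDMs (1.67, limma adjusted p = 1.33e-06), and was at 0.93 (0.000190) in Nlrp3-/- BMDMs, or 1.19 with median-ratio scaling. Ccl20, the Ccr6 ligand, was at most 0.0991 FPKM in control, between 1.20 and 1.69 in wild-type LPS+ATP and between 2.51 and 2.69 in Nlrp3-/- LPS+ATP. Ccl20 was called higher with costimulation in both genotypes (1.22 and 1.76). It passed the filter only through its LPS+ATP libraries, so these calls are not independent of the filter. The interaction was -0.74 for Ccl8 (limma adjusted p = 0.0261) and 0.53 for Ccl20 (0.00404), the latter 0.27 (0.557) with a pseudocount of 0.1.

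Among 17 CXC, CX3C and XC chemokines, 13 were tested, of which Cxcl3, Cxcl9 and Cxcl11 passed the filter only with LPS+ATP libraries. Costimulation called 9 higher and 0 lower in wild-type BMDMs, against 8.25% and 11.2% of all tested genes, and 8 higher and 2 lower in Nlrp3-/- BMDMs, against 6.64% and 8.21%. Between genotypes 7 were called higher and 0 lower in control, against 6.02% and 0.689%, and 5 higher and 1 lower with LPS+ATP, against 4.48% and 0.570%. Other scalings ended the calls of Cxcl3 (0.89 in control and 0.82 with LPS+ATP under median-ratio scaling) and Cx3cl1 (0.93 with LPS+ATP) between genotypes, and of Cxcl12 with costimulation in Nlrp3-/- BMDMs (-0.83). Newly past the fold limit were Cxcl14 with costimulation in wild-type BMDMs (1.08 with median-ratio scaling) and, on TPM, Cx3cl1 with costimulation in Nlrp3-/- BMDMs (1.04) and Cxcl12 between genotypes with LPS+ATP (1.06). Cxcl5 was higher by 2.82 in Nlrp3-/- control (limma adjusted p = 9.14e-11). Cxcl9 was between 472 and 487 FPKM in Nlrp3-/- LPS+ATP and between 175 and 192 in wild-type LPS+ATP. The median over this list was 1.01 in control and 0.83 with LPS+ATP, while that of the CC chemokines was -0.36 and -0.19.

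Markers of other cells also moved with genotype. The 7 fibroblast markers summed to 162 to 168 FPKM in wild-type control, 191 to 194 in wild-type LPS+ATP, 1188 to 1205 in Nlrp3-/- control and 926.5 to 942 in Nlrp3-/- LPS+ATP, with Col1a1 the most abundant. Of them 6 were called higher in Nlrp3-/- control, all but Lum (0.90, or 1.53 on TPM), against 6.02% of all tested genes, and 5 with LPS+ATP, against 4.48%. The 8 markers of neutrophils and their precursors summed to 251 to 285 FPKM in wild-type control, 312 to 324 in wild-type LPS+ATP, 1465 to 1509 in Nlrp3-/- control and 633.5 to 639 in Nlrp3-/- LPS+ATP. S100a9 was the most abundant in all groups but wild-type LPS+ATP, where Lcn2 was (214.5 to 222 FPKM, against 9.73 to 10.3 in wild-type control). With costimulation Lcn2 alone was higher and 6 of the 7 tested markers were lower by limma adjusted p alone, in wild-type and in Nlrp3-/- BMDMs. Of all tested genes 23.3% were higher and 53.1% lower by that rule in wild-type, and 20.6% and 53.8% in Nlrp3-/- BMDMs. The higher sum in wild-type LPS+ATP was that of Lcn2. Between genotypes 7 were called higher in Nlrp3-/- control, against 6.02% of all tested genes, and 3 with LPS+ATP, against 4.48%, where Camp (1.16) no longer passed the fold limit with median-ratio scaling (0.998), and Mpo (1.27), Elane (1.77) and Ltf (1.39) passed it on TPM. Their part in the differences of the CC chemokines between genotypes was not tested.

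The 5 markers of eosinophils, basophils and mast cells summed to 5.60 to 6.24 FPKM in wild-type control, 2.02 to 2.58 in wild-type LPS+ATP, 21.3 to 22.9 in Nlrp3-/- control and 6.05 to 6.67 in Nlrp3-/- LPS+ATP, with Prg2 the most abundant over the libraries, Fcer1a at 0 in all groups but Nlrp3-/- control, and 2 of 3 tested markers called higher in Nlrp3-/- control (on TPM also Cpa3, 1.42; 6.02% of all tested genes) and 1 with LPS+ATP (4.48%). The 2 endothelial markers, with Cdh5 the more abundant over the libraries, summed to 2.29 to 2.77 FPKM in wild-type control, 2.60 to 2.87 in wild-type LPS+ATP, 8.07 to 9.33 in Nlrp3-/- control and 5.34 to 5.75 in Nlrp3-/- LPS+ATP, with 2 called higher in control, of which Pecam1 (1.14) no longer passed the fold limit with median-ratio scaling (0.997), against 6.02% of all tested genes, and 0 with LPS+ATP, against 4.48%, where Cdh5 passed the fold limit on TPM (1.11). The 5 dendritic cell markers, with Zbtb46 the most abundant over the libraries, summed to at most 0.787 FPKM, with Cd209a and Siglech at 0 in both LPS+ATP groups. The 5 T and NK cell markers, with Ncr1 the most abundant over the libraries, summed to at most 0.560 FPKM, with Cd3d and Cd3e at 0 in wild-type LPS+ATP, Cd3e in Nlrp3-/- control and Cd3g in Nlrp3-/- LPS+ATP. The 3 B cell markers, with Cd79a the most abundant over the libraries, summed to at most 1.91 FPKM. None of the dendritic, T, NK or B cell markers was expressed highly enough to be tested.

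The 8 macrophage markers summed to 19964 to 21140 FPKM in wild-type control, 11276 to 11349 in wild-type LPS+ATP, 19038 to 19285 in Nlrp3-/- control and 10593 to 10841 in Nlrp3-/- LPS+ATP, with Lyz2 the most abundant. Of the 9 tested gene identifiers of this list (Itgam has 2), 0 were called higher or lower between genotypes in either state by limma with the fold limit. The shares of all tested genes were 6.02% higher and 0.689% lower in control, and 4.48% and 0.570% with LPS+ATP. By adjusted p alone 0 were higher and 5 lower in either state, against 33.3% and 14.5% of all tested genes in control and 35.9% and 12.6% with LPS+ATP. With costimulation 1 was called higher and 1 lower in either genotype (8.25% and 11.2% of all tested genes in wild-type, 6.64% and 8.21% in Nlrp3-/- BMDMs), and Adgre1 passed the fold limit as well with median-ratio scaling (1.28 in wild-type and 1.11 in Nlrp3-/- BMDMs). By the interaction of genotype and state, at a limma adjusted p under 0.05 alone, 0 markers were higher and 6 of 7 lower for neutrophils and their precursors, 0 and 5 of 7 for fibroblasts, 0 and 2 of 3 for eosinophils, basophils and mast cells, 0 and 2 of 2 for endothelial cells, and 3 and 3 of 9 for macrophages, against 14.7% and 13.0% of all tested genes. Of these interactions, that of Camp did not pass on TPM (limma adjusted p = 0.0718) or with a pseudocount of 0.1 (0.0767). That of Cpa3 did not pass with a pseudocount of 0.1 (limma adjusted p = 0.108). The part of the listed markers in the results on CC chemokines was not tested.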

How the data were processed

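Values are the FPKM that the authors deposited for 55335 mouse genes in 12 libraries. The aligner, the annotation and any scaling between libraries are not given in the sources used here, and the submitters' processing notes name the GRCm39 build. FPKM holds no read counts, so depth in reads is unknown. Relative depth read from the steps of low values ran from 1.0 to 1.218 (median 1.139 in wild-type control and 1.015 to 1.019 in the other groups), library sums of FPKM from 283278 to 299393, and genes above 0 from 21122 to 22613. Within groups r over genes was 0.990 to 0.993, with genes not independent replicates.

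Testing covered 12622 genes at or above 1 FPKM in 3 or more libraries, by limma 3.58.1 in R 4.3.3 on log2(FPKM + 1), two-sided, with 1 mean per group, a trend in the variance and Benjamini-Hochberg adjustment. The procedure was tested on simulated data. Named genes were all 10 members, genes of the other chemokine and receptor lists that were tested, the 2 most alike genes per tested member, Nlrp3 and the cell markers. The result of 1 gene of these lists is not reported here. The members and lists were chosen with earlier results of these data known. The sex-linked genes, Nnt, the alternatives for counts by adjusted p alone and the shares of genes whose libraries did not overlap were added after the data were seen. Alternatives were TPM, a smaller pseudocount (0.1), no filter on low values or one at 5 FPKM, no fold limit, upper-quartile and median-ratio scaling, no variance trend, the compared groups alone, a replicate block and leaving out each library in turn. Positions came from GENCODE M21 (GRCm38), not the build of the deposited values, and near copies from blastn 2.17.0+. Other steps ran in Python 3.11.15 with matplotlib 3.10.9, pandas 2.3.3 and numpy 2.4.6.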

Additional observations from a re-analysis of the deposited data

Results flagged for a closer look

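The change with costimulation differed between wild-type and Nlrp3-/- BMDMs for 7 CC chemokines (6 on TPM or with a pseudocount of 0.1) by the test of the difference itself, the interaction of genotype and state in limma, at an adjusted p under 0.05. Of the 7, 2 were higher and 5 lower, against 14.7% and 13.0% of all tested genes, and with the fold limit Ccl4 alone was called. The interaction was 1.43 for Ccl4 and 0.76 for Ccl3 on the log2 scale, which rose more in Nlrp3-/- BMDMs. It was -0.83 for Ccl7, -0.57 for Ccl2 and -0.75 for Ccl12, which rose less on that scale. The interaction of Ccl12 was not kept on TPM (-0.31, limma adjusted p = 0.477) or with a pseudocount of 0.1 (-0.05, limma adjusted p = 0.941), and the ratio of mean FPKM of Ccl12 was higher in Nlrp3-/- (63.9) than in wild-type BMDMs (57.6). The interaction was -0.30 for Ccl9, which rose less, and -0.42 for Ccl6, which fell further in Nlrp3-/- BMDMs and did not fall in wild-type BMDMs with median-ratio scaling (0.07). Markers of other cells had interactions too. By limma adjusted p alone 6 of 7 tested markers of neutrophils and their precursors were lower, and 5 of 7 of fibroblasts. Of these, Camp did not pass on TPM (limma adjusted p = 0.0718) or with a pseudocount of 0.1 (0.0767). The part of the markers of other cells in the values of the CC chemokines was not tested. Genotype, donor sex and origin of the mice cannot be told apart here.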

How the results depend on the processing

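Of 981 log2 fold changes recomputed for 45 pairs of member and comparison, 949 kept their direction and side of the threshold. Many of these could not change direction. The other filters, no fold limit, no variance trend, the compared groups alone and the replicate block left each log2 fold change as it was. So did leaving out a library of a group not compared. The count of 949 therefore overstates how far the values were put to the test. Those that changed direction were Ccl6 with costimulation in wild type (0.0675 with median-ratio scaling), Ccl5 between genotypes with LPS+ATP (0.0156 on TPM, and -0.0704 to 0.0421 leaving out a library, above 0 without wild-type LPS+ATP replicate 2 or 3 or Nlrp3-/- LPS+ATP replicate 2) and the interaction of Ccl22 (-0.48 with a pseudocount of 0.1, -0.26 on TPM, and -0.0036 to 0.1553 leaving out a library, below 0 without wild-type LPS+ATP replicate 1). The cause was not tested. Of the others, 4 no longer passed the fold limit and 20 newly passed, 18 of them because no fold limit was applied. Without that limit, 9 members were called between genotypes in control, 7 with LPS+ATP and 7 for the interaction, in place of 4, 2 and 1. Leaving out a library in turn gave 8 to 8 calls with costimulation in either genotype, 3 to 4 for genotype in control, 2 to 2 with LPS+ATP and 1 to 1 for the interaction. By adjusted p alone these ranges were 9 to 9, 9 to 9, 8 to 9, 7 to 7 and 7 to 8, and over the other alternatives 8 to 9, 9 to 9, 8 to 9, 7 to 8 and 6 to 7, the interaction of Ccl12 being lost on TPM and with a pseudocount of 0.1. With a replicate block the counts were 8, 8, 4, 2 and 1, and by adjusted p alone 9, 9, 9, 7 and 7. No pairing by replicate number was seen. Deviations of libraries with the same number had r between -0.057 and 0.053 over 18 pairs, 0 of them over 0.1. Of 12 libraries, 4 correlated best with a library of their own number. Whether libraries with the same number shared an animal or culture cannot be read from these values. On TPM 5 of 36 neighbours in the order of levels overlapped, as on FPKM. FPKM gives no read depth, so the precision of members under 1 FPKM is unknown.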
